A study of Mus musculus with 2 samples.

Results

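The interleukin 1 family was read in cultured mouse macrophages and osteoclasts. Its 9 listed members were the ligands Il1a, Il1b and Il18, the antagonists Il1rn and Il18bp, and the receptor chains Il1r1, Il1r2, Il1rap and Il1rl1. Members were found as probe sets whose only gene symbol was that of a member, which gave 8 members of the 18193 genes with such a probe set. These 8 members had 15 probe sets in all, and Il1rl1, the interleukin 33 receptor chain, is not analysed here. There was 1 array of osteoclasts and 1 array of macrophages. Per the labels, marrow cells of mice aged 8 weeks, of strain C57/Black6 for both samples, were kept for 3 days in M-CSF, the macrophage growth factor, and the adherent cells were used as precursors of both cell types. Osteoclasts were then grown for 6 days in M-CSF plus RANKL, the cytokine that makes such precursors into bone-resorbing cells. Macrophages were grown for 6 days in M-CSF alone, so all cells of the study had M-CSF. The labels do not say how many mice were used, of which sex they were, or whether both cultures came from the same animals. The cells were lysed as whole cultures, with no step that separated osteoclasts from undifferentiated cells named in the labels. In such bulk samples, fewer cells of a type and less RNA per cell cannot be told apart.

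Interleukin 1 alpha and beta are inflammatory cytokines that bind the receptor IL1R1, which then joins with its partner chain IL1RAP and signals through the adaptor MYD88 to NF-kappaB. The pathway is held back at several points: IL1RN occupies IL1R1 without signalling, and IL1R2 is a decoy that binds the cytokine but lacks the signalling domain. Interleukin 18 is a relative with receptors of its own and is neutralised by IL18BP. In bone, interleukin 1 is known to increase the resorbing activity and survival of osteoclasts, and mice without Il1rn are known to develop inflammatory arthritis on some strain backgrounds.

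Promoter windows of Il1rn, Il1r1 and Il18, the members at least 2-fold apart between the arrays, are shown because RANKL is known to act through AP-1, NFAT and NF-kappaB factors, whose short motifs can be looked for in them. Each sequence is the 250 bases before an annotated transcription start, in RefSeq's GRCm38.p6 annotation, read 5' to 3' on the gene's strand, which is the plus strand for the 5 shown. Another Il1rn window, that of the third start, chr2:24345121-24345370, overlaps the second and is not shown. Capitals mark a match on either strand to the AP-1 motif TGANTCA, the NFAT core GGAAA or the kappaB consensus, and no marked matches overlap. An NFAT core on the other strand reads as its reverse complement, TTTCC. Both Il1r1 starts and the later Il1rn starts lie within their genes as annotated, so these windows may overlap transcribed sequence.
Il1rn, first start, chr2:24336610-24336859: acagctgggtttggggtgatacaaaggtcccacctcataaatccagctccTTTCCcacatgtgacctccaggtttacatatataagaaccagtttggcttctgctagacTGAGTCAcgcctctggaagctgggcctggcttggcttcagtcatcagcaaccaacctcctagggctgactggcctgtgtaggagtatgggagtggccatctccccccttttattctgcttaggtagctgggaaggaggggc
Il1rn, second start, chr2:24345041-24345290: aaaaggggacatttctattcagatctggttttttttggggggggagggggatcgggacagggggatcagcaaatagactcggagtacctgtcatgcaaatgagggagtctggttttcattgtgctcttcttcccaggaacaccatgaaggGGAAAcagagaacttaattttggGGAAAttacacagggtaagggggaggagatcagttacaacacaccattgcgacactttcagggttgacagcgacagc
Il1r1, upstream start, chr1:40224830-40225079: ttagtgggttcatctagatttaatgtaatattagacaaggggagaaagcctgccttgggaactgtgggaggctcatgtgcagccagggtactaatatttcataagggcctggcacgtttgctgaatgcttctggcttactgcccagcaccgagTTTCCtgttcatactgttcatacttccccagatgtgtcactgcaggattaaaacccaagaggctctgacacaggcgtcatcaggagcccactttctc
Il1r1, downstream start, chr1:40266336-40266585: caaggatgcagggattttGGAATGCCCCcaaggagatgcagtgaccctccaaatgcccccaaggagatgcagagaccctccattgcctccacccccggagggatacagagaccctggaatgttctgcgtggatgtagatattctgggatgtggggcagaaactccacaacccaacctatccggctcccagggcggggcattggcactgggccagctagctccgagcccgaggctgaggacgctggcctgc
Il18, chr9:50554450-50554699: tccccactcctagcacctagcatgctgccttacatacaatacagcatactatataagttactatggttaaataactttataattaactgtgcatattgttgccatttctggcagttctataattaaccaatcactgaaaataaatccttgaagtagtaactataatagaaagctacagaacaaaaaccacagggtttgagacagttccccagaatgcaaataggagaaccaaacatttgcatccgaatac
The first Il1rn window held the AP-1 sequence TGAGTCA, which begins 141 bases before the start, and 1 NFAT core. The second Il1rn window held the NFAT core at 2 places and the third at 4 places, some of them shared because the windows overlap. The upstream Il1r1 window held 1 NFAT core, and the downstream Il1r1 window held a kappaB match that begins 232 bases before the start. The Il18 window held none of the 3 motifs. All 9 members had a window, with 13 starts among them. Of these 13 windows, 2 held an AP-1 match, 9 an NFAT core and 1 a kappaB match. Over all 32851 windows of the same length in the annotation the shares were 6.75% for AP-1, 55.6% for the NFAT core and 7.25% for kappaB. The other AP-1 match was in Il1a, where TGACTCA begins 12 bases before the start. A match is only a run of letters, and no binding was measured here.

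**Figure D1:**
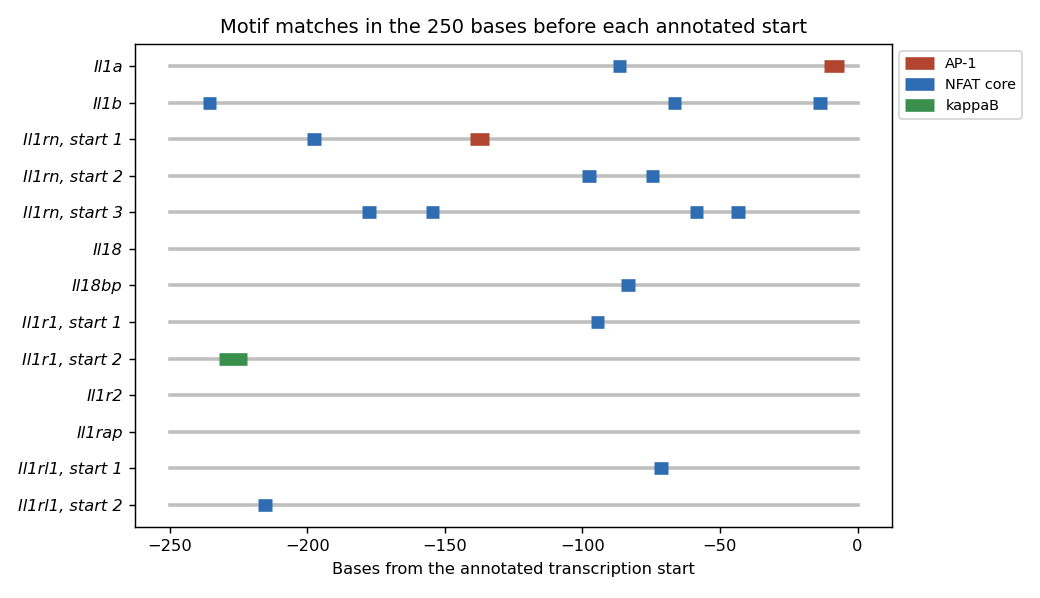
Each grey line is the 250 bases before an annotated start of a member, with the distance from the start in bases on the x axis and coloured blocks for motif matches on either strand. AP-1 matches lie in Il1a and in the first Il1rn window, the kappaB match lies in the downstream Il1r1 window (start 2), and 9 of the 13 windows hold an NFAT core.

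The values are the authors' linear intensities, 1 for each probe set and array. The median intensity was 22.8 in the osteoclast array and 27.0 in the macrophage array. Over the 19406 probe sets measured in both arrays the median log2 difference, osteoclasts minus macrophages, was -0.45, a signal 1.37-fold lower in osteoclasts. All differences are printed after subtraction of that shift unless called deposited. Those of the deposited values are 0.45 lower, except where a bound was held at 0. A signal counted as measured above a floor of 25.8 in the osteoclast array and 28.3 in the macrophage array. This floor was the 95th percentile of 78 probe sets of olfactory and vomeronasal receptors, taken here as background. Whether these cells express any of those receptors was not tested. Because each group had 1 array, nothing could be tested. The arrays hold no error other than the disagreement among probe sets that share a gene, with a pooled SD of 0.43 (log2) from 4608 genes and 12132 probe sets, and this says nothing of variation between cultures or animals. Genes were therefore described by size, with 2-fold (1 on the log2 scale) as the threshold.

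The arrays fitted their labels by osteoclast and macrophage markers and differed by the sex-linked genes. Of 14 osteoclast markers 13 were at least 2-fold higher in the osteoclast array, and of 13 measured macrophage markers 8 were at least 2-fold lower. The shares of all measured genes were 6.52% and 6.34%. Macrophage markers under 2-fold apart included Csf1r (-0.27), Cd14 (-0.45) and Cd68 (0.05). Xist, expressed from the inactive X chromosome of female cells, had a signal of 22.1 in osteoclasts and 1872 in macrophages. The Y-linked gene Eif2s3y had 321 in osteoclasts and 0.571 in macrophages, and Kdm5d and Uty had 63.5 and 72.7 in osteoclasts against 6.14 and 14.7 in macrophages. By these signals the osteoclast and macrophage cultures appear to come from animals of different sex, which the labels do not give. The arrays thus differed in these sex-linked signals as well as in RANKL. For every member a difference between the animals and a difference between the treatments cannot be told apart. RNA integrity, read as the 3' control signal divided by the 5' one, was 0.862 in osteoclasts and 0.748 in macrophages for Gapdh, and 1.21 in osteoclasts and 1.23 in macrophages for beta-actin.

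In osteoclasts the antagonist Il1rn and the signalling receptor Il1r1 were higher than in macrophages, and the ligand Il18 was lower. Of the 8 members with a probe set, 6 were measured in at least 1 array and Il1a and Il1r2 were measured in neither. Among the 6, Il1rn and Il1r1 were at least 2-fold higher and Il18 was at least 2-fold lower. Of all 11496 genes measured in at least 1 array, 6.52% were higher by 2-fold or more and 6.34% lower by that much. On the deposited scale 2 members were at least 2-fold higher and 2, Il18 and Il18bp, at least 2-fold lower, where the shares of all genes were 2.63% and 17.0%. The median difference of the 6 members was -0.51, against 0.00 over all measured genes, and 4 of the 6 lay below 0. With so few genes measured these counts describe the members and say nothing of the family against other genes.

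**Figure D2:**
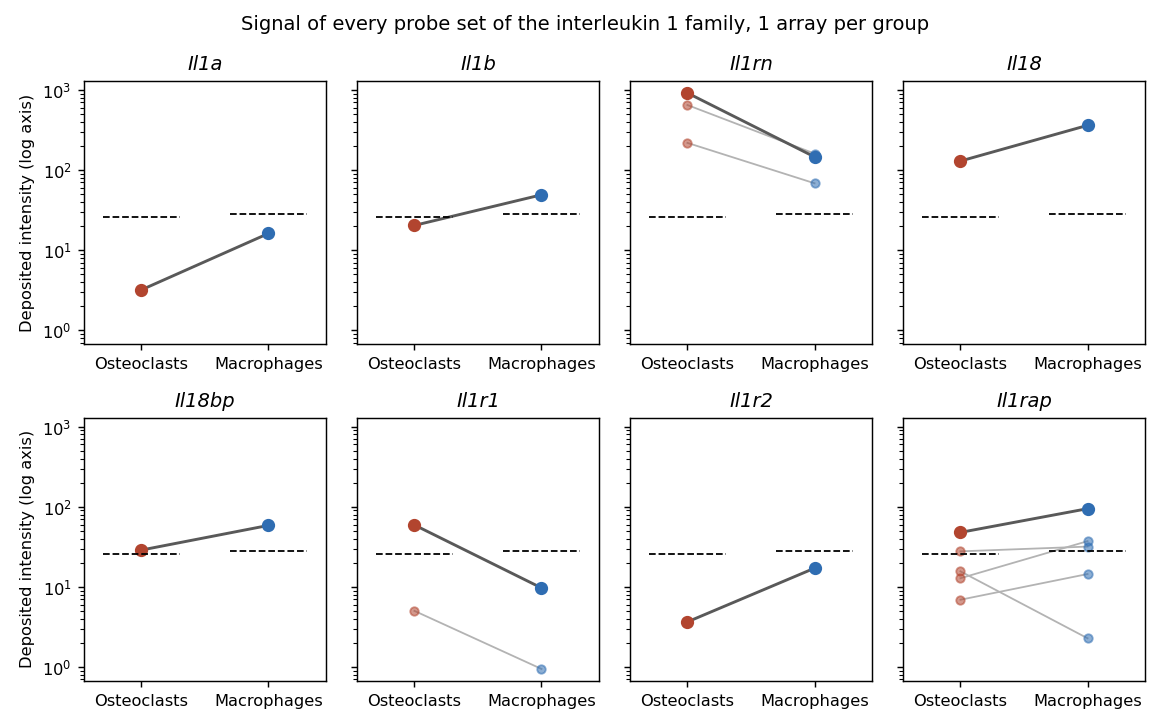
Deposited intensity on a log axis for every probe set of the 8 members, with osteoclasts on the left and macrophages on the right of each panel. Large points joined by dark lines are the probe set used for the gene, small points are its other probe sets, and dashed lines mark the floor of each array. All 3 Il1rn lines fall towards macrophages, the Il18 line climbs towards macrophages, and both points of Il1a and Il1r2 lie under the floors.

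Among the antagonists, Il1rn was measured in both arrays by all of its probe sets. Its brightest probe set, 1451798_at, had a signal of 916 in osteoclasts and 146 in macrophages. The other probe sets gave 648 in osteoclasts against 161 in macrophages (1423017_a_at) and 218 in osteoclasts against 68.4 in macrophages (1425663_at). All 3 were higher in osteoclasts. The log2 difference of the brightest was 3.10, an 8.56-fold higher signal, and those of the others were 2.46 and 2.12, so the lowest of the 3 was still 4.36-fold. Among the measured genes 1.30% reached 4-fold higher in osteoclasts, and Il1rn had the 52nd highest difference of the 11496. As deposited, its probe sets differed by 1.67 to 2.65. Il1rn is known to give a secreted and intracellular forms from different first exons, and which forms each probe set reads was not tested.

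Il18bp, the soluble protein that traps interleukin 18, was dim. Its probe set, 1450424_a_at, had a signal of 28.8 in osteoclasts, just above the floor, and of 58.5 in macrophages. The difference was -0.57, under 2-fold relative to the shift, and -1.02 as deposited.

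Of the ligands, Il18 alone was measured in both arrays. Its probe set, 1417932_at, had a signal of 130 in osteoclasts and 362 in macrophages. The difference was -1.03, or 2.04-fold lower in osteoclasts, which only just passed the threshold, and 2.79-fold lower as deposited. Il1b, the secreted inflammatory form of interleukin 1, had a signal of 20.4 in osteoclasts, under the floor, and 49.1 in macrophages. It was at least 1.39-fold lower in osteoclasts relative to the shift, a bound that does not reach 2-fold. Il1a, which is released by damaged cells or shown at the cell surface, had 3.20 in osteoclasts and 16.2 in macrophages, both in the range of the receptor probe sets, so no fold is given. A level under the floor was not detectable here and does not show that a transcript was absent.

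Among the receptors, Il1r1, the chain that binds interleukin 1 and signals, was measured in osteoclasts only. Its probe set 1448950_at had a signal of 59.2 in osteoclasts and 9.70 in macrophages. With the macrophage signal raised to the floor, Il1r1 was at least 2.86-fold higher in osteoclasts relative to the shift (1.51 on the log2 scale) and at least 2.09-fold higher as deposited. A second Il1r1 probe set, 1459777_at, was under the floor in both arrays, with 5.02 in osteoclasts and 0.946 in macrophages. The difference of Il1r1 thus rests on 1 dim probe set.

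The partner chain Il1rap had 5 probe sets, of which 3 were measured and none of these was 2-fold apart. The brightest, 1421844_at, had a signal of 47.9 in osteoclasts and 94.7 in macrophages, a difference of -0.53. Probe set 1421843_at gave 27.8 in osteoclasts and 31.9 in macrophages (0.25), and 1449585_at gave 12.8 in osteoclasts, under the floor, and 37.2 in macrophages, at least 1.06-fold lower in osteoclasts. The 1 value above 0 and the bound of 1449585_at both lie within the probe-set SD of 0.43, with signals near or under the floor. As deposited all 3 were below 0, with differences of -0.98 for 1421844_at, -0.20 for 1421843_at and -0.53, a bound, for 1449585_at. The median of all measured genes was itself -0.44 on that scale. Of the others, both under the floor in each array, 1439697_at had 6.91 in osteoclasts and 14.5 in macrophages, and 1442614_at had 15.6 in osteoclasts and 2.28 in macrophages. Il1rap is known to have membrane and soluble forms, and which of them a probe set reads was not tested. The decoy Il1r2 had 3.66 in osteoclasts and 17.1 in macrophages, under the floor in both.

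**Figure D3:**
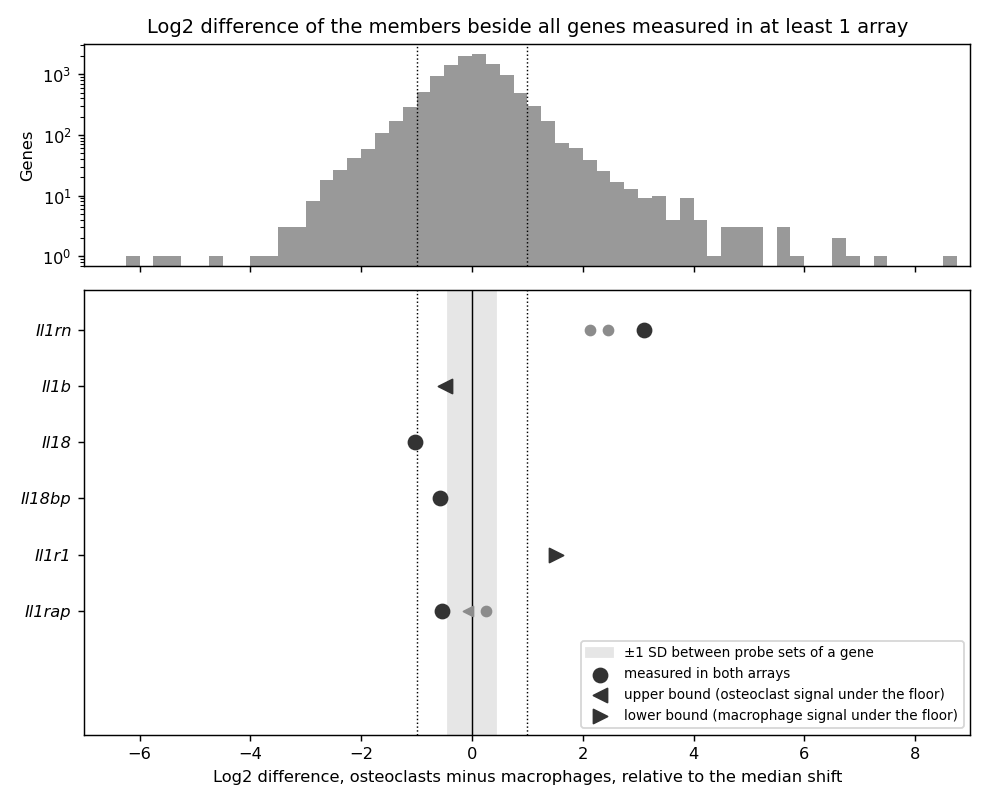
The upper panel is a histogram, on a log count axis, of the log2 differences of all 11496 genes measured in at least 1 array, and the lower panel shows every measured probe set of the members, with a large mark for the one used for the gene. Triangles are bounds, the grey band is 1 SD (0.43) between probe sets of a gene on each side of 0, and dotted lines mark 2-fold. The 3 Il1rn probe sets lie between 2.12 and 3.10, Il18 lies at -1.03, and the Il1rap probe sets lie between -0.53 and 0.25. As deposited the Il1rap probe sets shown are all below 0, as is the median of all measured genes (-0.44).

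Genes nearest to a member by the Euclidean distance between their pairs of log2 signals, over 2 arrays only, were read as a description. Signals of different probe sets are not on 1 scale of abundance. For Il1rn they were Scin, an actin-severing protein gene (distance 0.28), the transporter gene Slco4a1 (0.32) and the exchange factor gene Dock5 (0.37). For Il1r1 they were Kazn, the ATP-gated channel gene P2rx5 and Ino80b, which like Il1r1 were under the floor in macrophages, so their distances and order are set in part by background and are not given. For Il18 they were Wwc2 (0.015), Ints6l (0.022) and Extl3 (0.060).

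Other ligands and receptors of the family were mostly dim. Of 12 listed, 11 had a probe set and 5 were measured, with 1 at least 2-fold higher in osteoclasts, none lower and a median of 0.23. The shares of all measured genes were 6.52% and 6.34%. As deposited the counts were 0 and 2, beside 2.63% and 17.0%, and the median was -0.22. Il36g, a ligand of the interleukin 36 branch, had a signal of 65.4 in osteoclasts and 33.0 in macrophages, a difference of 1.44, and was under 2-fold as deposited (0.99). The accessory chain Il18rap had 20.2 in osteoclasts and 54.2 in macrophages, and the inhibitory receptor Sigirr had 24.3 in osteoclasts and 67.9 in macrophages. Both were under the floor in osteoclasts, and the bounds were at least 1.54-fold and at least 1.93-fold lower there. These values were chosen after they were seen, as were those of Il18r1, the ligand-binding chain for interleukin 18, which had 3.78 in osteoclasts and 2.32 in macrophages, under the floor in both.

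The genes that cleave and release interleukin 1 beta and interleukin 18 were measured in nearly all cases and went both ways. Of 19 listed, 17 were measured, 4 were at least 2-fold higher in osteoclasts and 1 was at least 2-fold lower, with a median of -0.39, where the shares of all measured genes were 6.52% and 6.34%. As deposited the counts were 2 and 6, beside shares of 2.63% and 17.0%, and the median was -0.84. Mefv, which encodes the inflammasome sensor pyrin, had a signal of 451 in osteoclasts and 90.8 in macrophages, a difference of 2.76. Pstpip1, whose product binds pyrin, had 1577 in osteoclasts and 496 in macrophages (2.12). Gsdmd, whose cleaved product forms the pores through which interleukin 1 beta leaves, had 817 in osteoclasts and 453 in macrophages (1.30). The inflammatory caspase gene Casp4, named after its value was seen, was the fourth, with 287 in osteoclasts and 172 in macrophages (1.19). Naip5, a sensor of bacterial flagellin, was lower, with 53.9 in osteoclasts and 199 in macrophages (-1.43). Its close paralogs Naip2 and Naip6, named for that reason, gave -0.86 and -0.41, and probes for such similar genes may read each other's transcripts. The core genes Casp1, Pycard and Nlrp3, also named after their values were seen, encode the protease, the adaptor and a sensor of the inflammasome. They had differences of -0.87, -0.37 and -0.61, all under 2-fold relative to the shift, with Casp1 at 502 in osteoclasts and 1249 in macrophages.

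Adaptors and kinases below the receptors differed little relative to the shift, as did most measured genes, of which 6.52% were at least 2-fold higher and 6.34% lower. Read from their brightest probe sets, all 19 measured genes of the 21 listed were under 2-fold apart, between -0.93 and 0.85, with a median of -0.03. Other probe sets of Ikbkg, which encodes the regulatory subunit of the kinase that releases NF-kappaB, and of the kinase gene Map3k3 passed 2-fold, at 1.44 and -1.11. As deposited the median was -0.48, against -0.44 over all measured genes. On that scale 5 were at least 2-fold lower, beside a share of 17.0% of all measured genes. As examples chosen after their values were seen, the adaptor gene Myd88 had 435 in osteoclasts and 789.5 in macrophages (-0.41), and the ubiquitin ligase gene Traf6 had 101 in osteoclasts and 85.5 in macrophages (0.70). Irak3, an inhibitor of the pathway, had 71.0 in osteoclasts and 185 in macrophages (-0.93).

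Genes known to be induced by interleukin 1 in various cells differed in both directions. Of 25 listed, 21 were measured. Of these, 7 were higher in osteoclasts by 2-fold or more and 5 were lower by that much, with a median of 0.22, where the shares of all measured genes were 6.52% and 6.34%. As deposited the counts were 2 and 6, beside 2.63% and 17.0%, and the median was -0.23. The higher genes included Birc3, an inhibitor of cell death, with 1362 in osteoclasts and 334 in macrophages (2.48), although its second probe set gave -0.24. The NF-kappaB subunit gene Nfkb2 had 304 in osteoclasts and 146 in macrophages (1.51), with its second probe set at 0.69, and Bcl3, a partner of such subunits, had 178 in osteoclasts and 98.1 in macrophages (1.31). The lower genes were led by the chemokine gene Ccl4, with 50.4 in osteoclasts and 375 in macrophages (-2.45), followed by the cyclooxygenase gene Ptgs2, with 56.6 in osteoclasts and 345 in macrophages (-2.16, second probe set -0.74), and the chemokine gene Ccl3, with 96.9 in osteoclasts and 440 in macrophages (-1.73). The cytokine gene Tnf (-1.08) and the chemokine gene Cxcl2 (at least 2.39-fold lower in osteoclasts) were the other lower ones. All these genes have other inducers too, and these values do not measure interleukin 1 activity.

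**Figure D4:**
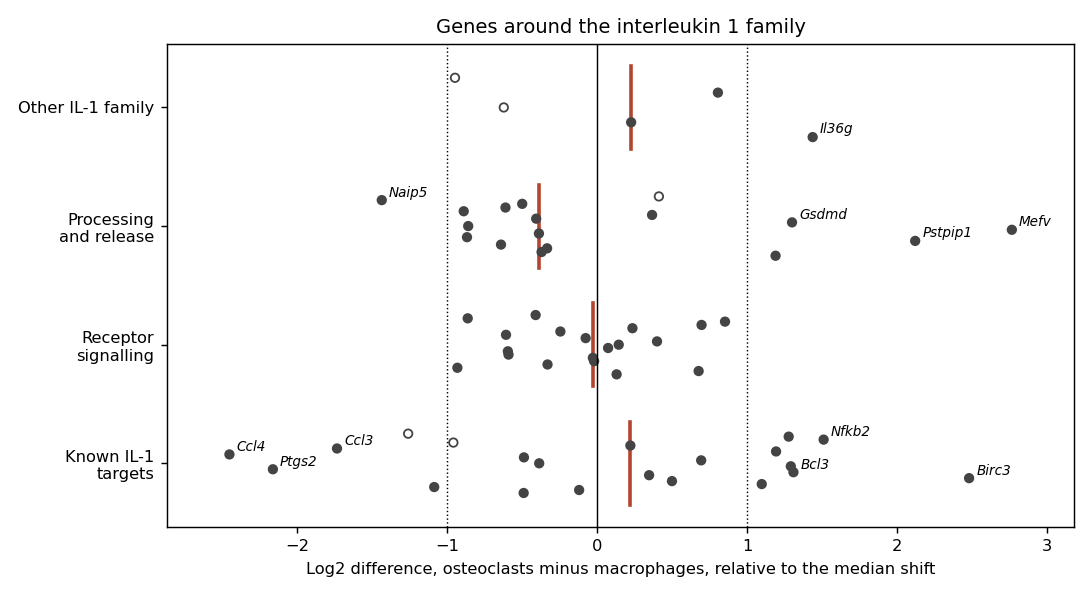
Log2 difference, osteoclasts minus macrophages, relative to the median shift, for each measured gene of the 4 lists, with vertical scatter for legibility only. Open points are bounds, red bars are list medians and dotted lines mark 2-fold. All 19 signalling genes lie within 2-fold by their brightest probe sets, whereas Mefv, Pstpip1 and Birc3 lie beyond 2 on the log2 scale to the right and Ccl4 and Ptgs2 beyond 2 to the left.

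Granulocytes are known to express Il1rn, Il1b and Il1r2, and their markers also differed between the arrays. Of 16 granulocyte markers with a probe set, 15 were measured. Of these, 9 were higher in osteoclasts by 2-fold or more and 1 was lower by that much, with a median of 1.14. The shares of all measured genes were 6.52% and 6.34%. As deposited the counts were 3 and 4, beside 2.63% and 17.0%, and the median was 0.69. Their signals summed to 7414 in osteoclasts and 5635 in macrophages, with single genes from 4.66 to 2161 in osteoclasts and from 2.74 to 1448 in macrophages. The calprotectin gene S100a9 had 2161 in osteoclasts and 904 in macrophages. The receptor gene Csf3r, the 1 that was at least 2-fold lower, had 52.4 in osteoclasts and 172 in macrophages (-1.27). The granulocyte chemokine receptor gene Cxcr2 was under the floor in both arrays, with 4.66 in osteoclasts and 2.74 in macrophages. The 15 measured markers lay between -1.27 and 1.75, with 10 above 0 and 5 below. The part of granulocytes in the Il1rn difference was not tested.

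Stromal cells are known to express Il1r1, and stromal markers were present in both arrays. Of 11 with a probe set 10 were measured, 5 above 0 and 5 below, with a median of 0.22 (-0.22 as deposited). Of these, 1 was at least 2-fold higher in osteoclasts (Col3a1, a collagen gene) and 1 lower by that much (Tnfrsf11b, the RANKL decoy receptor gene). The shares of all measured genes were 6.52% and 6.34%. As deposited the counts were 0 and 3, beside 2.63% and 17.0%. Their signals summed to 7709 in osteoclasts and 13136 in macrophages, with single genes from 2.65 to 2895 in osteoclasts and from 11.0 to 5744 in macrophages. The decorin gene Dcn and the growth factor receptor gene Pdgfrb, chosen after their values were seen, had 37.0 and 335 in osteoclasts against 15.3, under the floor, and 249 in macrophages. Sparc and Cxcl12, chosen in the same way, went the other way. They had 1535 and 130 in osteoclasts against 3705 and 307 in macrophages (-0.82 and -0.79). The part of stromal cells in the Il1r1 difference was not tested. Of the endothelial markers 3 of 6 were measured, with summed signals of 180 in osteoclasts and 392 in macrophages, and 1 was at least 2-fold lower. Few markers of other cells were measured: 2 of 10 for mast cells and basophils (median -0.42), 2 of 10 for T and NK cells (-0.85), 3 of 5 for B cells (-0.12) and 2 of 7 for dendritic cells (-0.31).

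**Figure D5:**
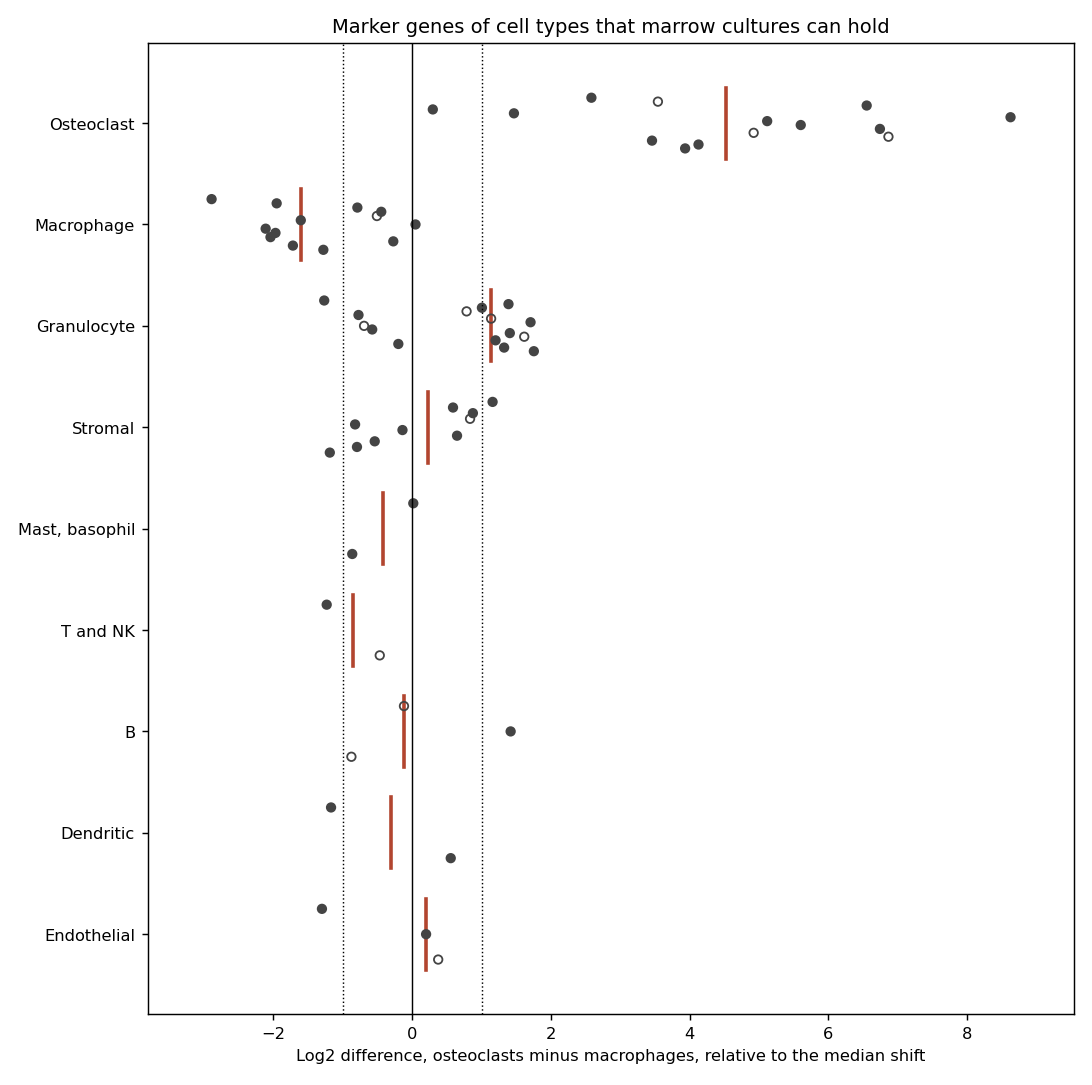
Log2 difference, osteoclasts minus macrophages, relative to the median shift, for the measured markers of each cell type, with vertical scatter for legibility only. Open points are bounds, red bars are list medians and dotted lines mark 2-fold. Osteoclast markers reach 8.62, macrophage markers reach -2.89, and granulocyte markers lie between -1.27 and 1.75.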

How the data were processed

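Per the labels' protocols, 1 µg of total RNA from each culture was labelled with biotin as cRNA (Affymetrix, one cycle). The deposited values are intensities on a linear scale, for 45101 probe sets in both arrays. How the authors summarized, background-corrected and scaled them was not stated in any source used, and no detection calls were used. Gene comparisons left out 64 control probe sets and the probe sets with several symbols (932) or none (9160) in the platform annotation, which can be old. Symbols were read through Entrez identifiers in RefSeq's GRCm38.p6 gene table, and list names through its synonyms. A gene's value came from the probe set whose log2 signal, averaged over both arrays, was highest. Signals under the floor were raised to it, so differences with 1 side measured are bounds. A bound that would have pointed towards the side under the floor was set to 0. The shift of -0.45 was removed. Python 3.11.15, pandas 2.3.3 and numpy 2.4.6 were used. The steps were tested on simulated data with large changes in bright probe sets only. That simulation did not cover dim members, bounds or differences near 2-fold. The number of arrays, 1 per group, limits the precision of every value, and no test was possible. The members and lists were chosen with earlier results of these data known. All members are named. From each pathway list up to 3 genes in each direction are named, those with the largest differences of at least 2-fold. The 3 genes nearest to each member at least 2-fold apart are also named, unnamed gene models passed over. Tnf, Cxcl2, Ikbkg, Map3k3, the sex-linked genes and single genes of the cell type marker lists were named outside this rule. Other exceptions are stated. Alternatives for the scale, the floor and the probe set of a gene were tried.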

Additional observations from a re-analysis of the deposited data

How the results depend on the processing

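As deposited, with no shift removed, the differences were 2.65 for Il1rn, 1.06 for Il1r1, -1.48 for Il18, -1.02 for Il18bp, -0.98 for Il1rap and -0.93 for Il1b, so no member changed direction, 2 members were at least 2-fold lower and the members' median was -0.96. On that scale 302 genes were at least 2-fold higher and 1950 lower, so higher genes were 13.4% of those 2-fold apart, against 50.7% relative to the shift. The other family ligands and receptors then had 0 higher, 2 lower and a median of -0.22, the processing genes 2 higher, 6 lower and a median of -0.84, the signalling genes 5 lower and a median of -0.48, and the targets 2 higher and a median of -0.23. Scaling to a common trimmed mean changed no 2-fold count of the members or pathway lists, and of all genes 737 were higher and 740 lower. With quantile normalization other family genes at least 2-fold lower numbered 1 and targets at least 2-fold lower 6. Of all genes 704 were then higher and 774 lower. Under both, each member's difference stayed within the probe-set SD of 0.43 of its main value.

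With the floor at the 40th percentile of all probe sets, Il1r1 was at 2.25 and other family genes at least 2-fold lower numbered 1. With no floor, Il1r1 was at 3.06 and 3 members, Il18, Il1a and Il1r2, were at least 2-fold lower. Il1a and Il1r2 were under the floor in both arrays, so their differences are between background signals. Other family genes numbered 2 higher and 2 lower, and 2832 of all genes were higher and 2556 lower, background included. Over all probe sets of a gene, the mean difference of Il1rn was 2.56. With the dimmest measured probe set Il1rn was at 2.12, Il1rap at -0.078, and 4 targets were at least 2-fold higher. Il1rn and Il1r1 were at least 2-fold higher under all 7 alternatives. No paired analysis was possible because each group has 1 array and the labels give no replicate numbers.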
